A study of Gallus gallus and Dromaius novaehollandiae and Alligator mississippiensis with 60 samples.

Results

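The table of transcript levels from developing chicken, emu and alligator skin held 17889 genes, and 67 of them make up the set described here. They are chicken genes whose cells are empty for every emu and every alligator library, as was the case for 5995 genes, and whose level peaked in feather epidermis. Over the 10 chicken epidermis groups, each a skin appendage at a stage, a member had a highest group mean of at least 50 TPM, a unit of transcript abundance per gene length and library total, and a range of at least 2 between group means of log2(TPM + 1). Its highest group mean on that log2 scale was in dorsal or femoral feather epidermis. In all, 212 genes without emu or alligator values passed the level and range thresholds, and the other peaks were in claw for 94 genes and in scutate or reticulate scale for 51. An empty cell says only that no emu or alligator value was given for the gene, not that the gene is missing from those genomes.

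The 30 chicken libraries were 20 of epidermis and 10 of dermis from embryos whose skin layers were parted with dispase, with no genotype or drug compared and each stage given by the Hamburger and Hamilton series. Every epidermis group had 2 libraries with different specimen numbers, and every dermis group had 1. Feather tissue came from the dorsal and the femoral tract, at the placode stage (stages 33 to 34) and during morphogenesis (stage 36). Foot tissue came from scutate scales at stages 37 and 40, reticulate scales at stages 39 and 40, and claws at stages 36 and 38, for placode and morphogenesis respectively. Dorsal and femoral libraries with the same replicate number at the same stage came from the same specimen, and feather dermis shared the specimens of replicate 1 of feather epidermis. Stages carry the same name across appendages but not the same age.

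A feather starts as a placode, a local thickening of the epidermis over a condensation of dermal cells, and signals pass between both layers as the bud forms, grows out and divides into barbs. Scutate scales of the shank, reticulate scales of the footpad and claws are other appendages of bird skin. Feather, scutate scale and claw are filled with keratins and with corneous beta proteins, a large family of bird and reptile proteins encoded by many similar genes. The table gives Ensembl chicken gene identifiers with no names, and 0 of them matched the reference table, so the members are given by identifier with no role. Neither the labelled layer nor any other cell type could be checked against marker genes.

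**Figure D1:**
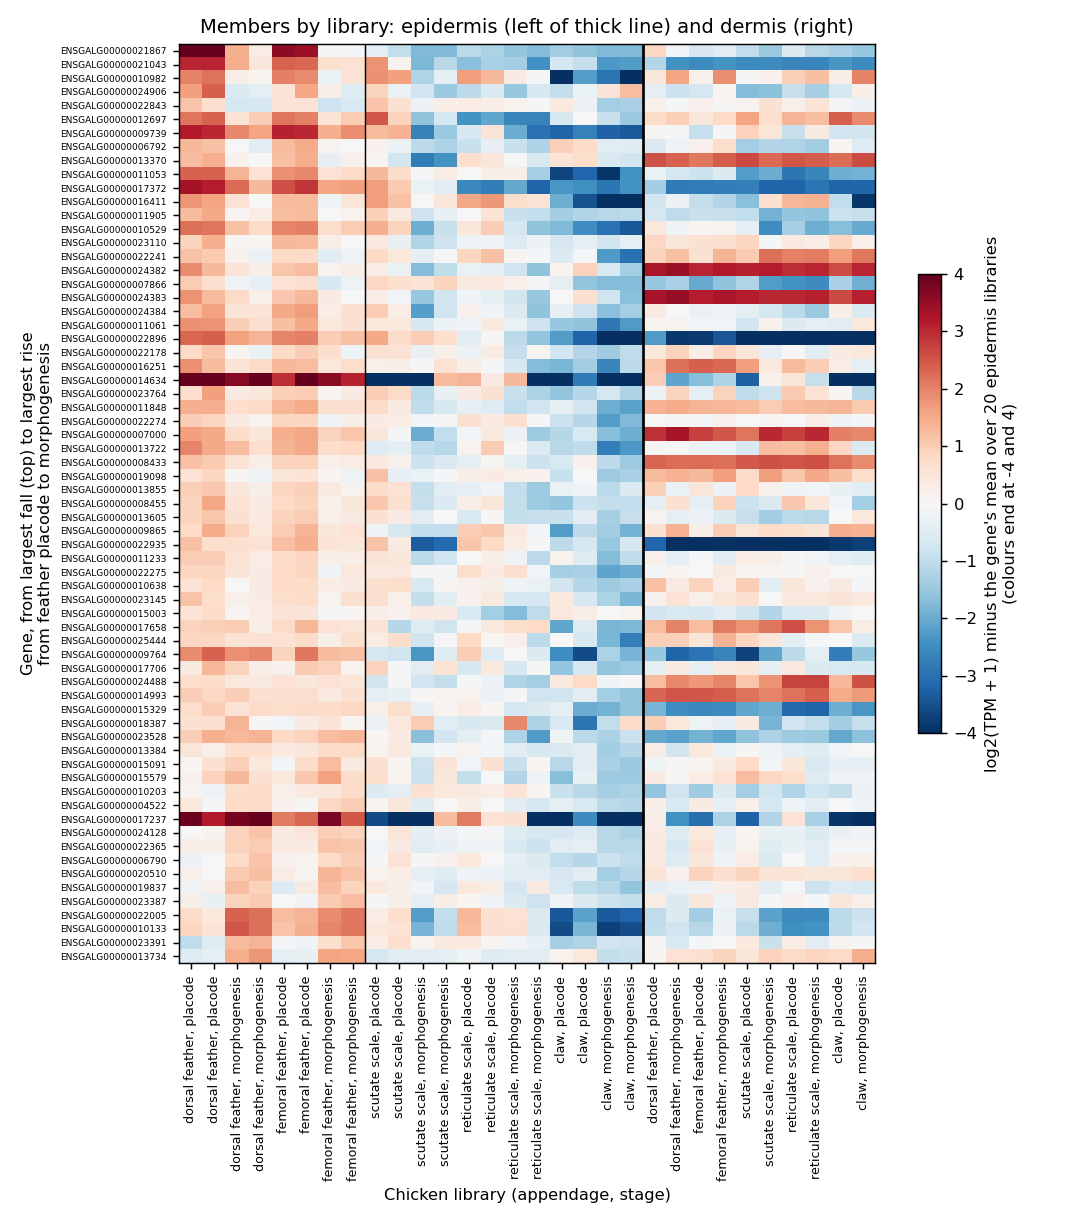
Level of each of the 67 members (1 line each, ordered by their change between feather stages) in the 20 epidermis and 10 dermis libraries (columns), as log2(TPM + 1) minus the gene's mean over epidermis. The left block of 8 feather epidermis libraries is red for most members, where the choice of members required a peak in a feather group. Claw morphogenesis is the lowest group for 47, a share not computed over all genes.

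The members were chosen by their epidermis levels, so the values in this paragraph are given with no test. The peak was in dorsal placode epidermis for 42 members, dorsal morphogenesis for 11, femoral placode for 7 and femoral morphogenesis for 7. Claw morphogenesis was the lowest group for 47 members, a share not computed over all genes. Of all genes, 63.6% were lower in claw epidermis at morphogenesis than at placode. The best group outside feather was scutate scale placode for 42 members and reticulate scale placode for 12. The feather peak stood a median of 0.73 above the best other group on the log2(TPM + 1) scale, with a range of 0.026 to 4.89. It stood less than 0.5 above in 26 members and 1 or more above in 24. Thus many members were at nearly the same level in some foot epidermis group. By contrast, 2 stood 3 or more above every group outside feather, ENSGALG00000021867 by 4.89 and ENSGALG00000014634 by 4.37. The highest group mean was 50 to 100 TPM in 32 members, higher in the other 35, of which the 6 highest ran from 542 to 4410 TPM. At the level threshold, the last members inside had highest group means of 50.3 and 50.7 TPM and the first genes outside 48.9 and 47.8 TPM. At the range threshold the values were 2.01 and 2.01 inside against 1.99 and 1.99 outside. By peak, the closest members led the best other group by 0.026 and 0.039, and for the closest genes outside the same difference was -0.0044 and -0.034 on the log2 scale.

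The members' summed level was 12141 to 16125 TPM in the 4 feather placode epidermis libraries and 8044 to 9307 TPM in the 4 feather morphogenesis libraries. In the 12 foot epidermis libraries it ran from 2231 to 9980 TPM, with both claw groups lowest, at means of 2989 TPM for placode and 2362 TPM for morphogenesis. Dermis varied less. The sum was 6402 to 7331 TPM in feather dermis and 5611 to 6996 TPM in foot dermis. A single member, ENSGALG00000011905, supplied 19.5% to 31.6% of the sum in feather epidermis. In dorsal and then femoral placode epidermis its values were 4052, 4768, 3832 and 4053 TPM, and at morphogenesis they were 1818, 2055, 1697 and 1848 TPM. All placode libraries were above all morphogenesis libraries for this gene, and scutate placode reached 3202 TPM.

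The stage comparison asked how the members' levels in feather epidermis differed between placode and morphogenesis. These libraries also chose the members, and a rule that asks for a wide range favours genes that differ, so what follows on stage is a description and supports nothing. Of 67 members, 36 fell and 13 rose at an adjusted p under 0.05 (limma on log2(TPM + 1), Benjamini-Hochberg over 12757 genes), and 18 were not called. Among all genes tested, 13.7% fell and 16.2% rose. The 4 libraries of a stage came from 2 specimens, which this fit does not take into account. With the tracts of each specimen averaged, 2 specimens a stage, 13 members fell and 8 rose, against 4.8% and 5.74% of all genes. The median change of the members was -0.64 on the log2 scale, against 0.037 over all genes. The change was at least 2-fold in 20 of those that fell and 7 of those that rose, shares not computed over all genes. In 40 members every placode library was above every morphogenesis library, which held for 17.7% of all genes, and in 13 every morphogenesis library was above, as for 21.5%. Each tract was also tested alone, as a contrast within the same fit. In the dorsal tract, 20 members fell and 12 rose, against 7.09% and 10.2% of all genes. In the femoral tract alone, 13 fell and 8 rose, against 5.45% and 5.2%.

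**Figure D2:**
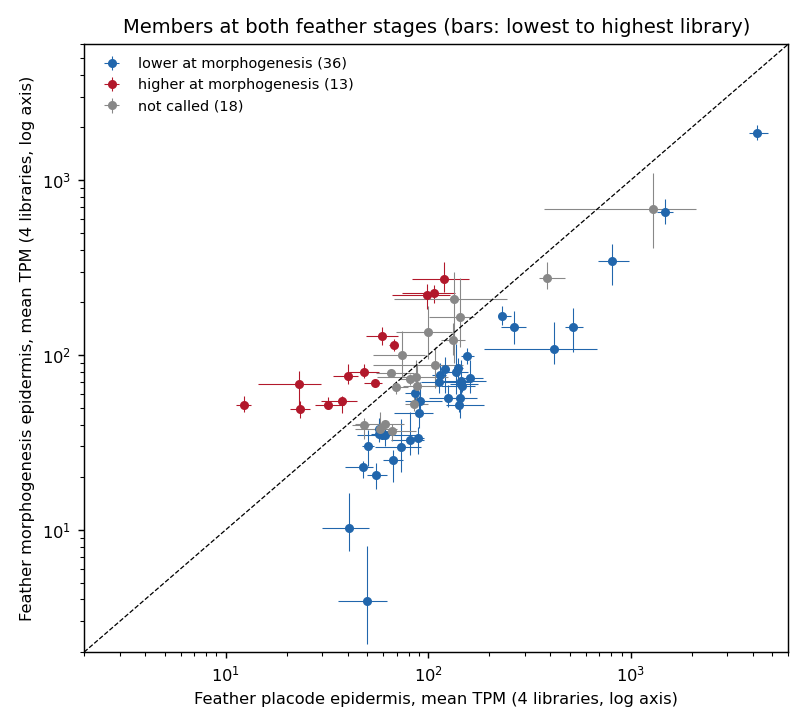
Mean TPM of each member in 4 feather placode libraries (horizontal, log axis) against 4 feather morphogenesis libraries (vertical, log axis), with bars from the lowest to the highest library and the diagonal marking equal levels. The 36 members that fell lie below the diagonal, furthest for the gene whose mean went from 49.9 to 3.94 TPM, and the 13 that rose lie above it.

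ENSGALG00000021867 fell the most. Its placode values were 62.3 and 61.9 TPM in the dorsal tract and 39.7 and 35.6 TPM in the femoral tract, and at morphogenesis they were 8.06 and 3.21 TPM and then 2.23 and 2.28 TPM. The groups did not overlap, and the change was -3.46 (SE 0.21 by limma, 4 libraries of 2 specimens a stage). Outside feather its epidermis level was at most 1.6 TPM, in a scutate placode library, and it was listed at 0 in both libraries of scutate and of claw morphogenesis. The next largest fall was that of ENSGALG00000021043, from 50.5, 51.0, 31.5 and 29.9 TPM to 16.2, 7.57, 8.68 and 8.49 TPM in the same order. Its stages did not overlap either, with a change of -1.91 (SE 0.34). Of the foot groups only scutate placode came near, with 20.9 and 5.86 TPM in its replicates, and that spread spans the feather morphogenesis values.

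ENSGALG00000013734 rose the most. Its 4 placode libraries held 11.2, 12.3, 12.3 and 13.4 TPM, and its 4 morphogenesis libraries 47.3, 58.5, 51.2 and 50.5 TPM. The libraries of each stage lay close together and far from the other stage, with a change of 1.99 (SE 0.11). All 12 foot epidermis libraries, at 8.04 to 22.6 TPM, were below the feather morphogenesis libraries. ENSGALG00000023391 went from 14.5, 20.9, 29.5 and 26.9 TPM to 74.3, 80.6, 51.1 and 67.4 TPM, a change of 1.56 (SE 0.14). Its lowest morphogenesis library was just above its highest foot library, a scutate placode library at 49.03 TPM.

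**Figure D3:**
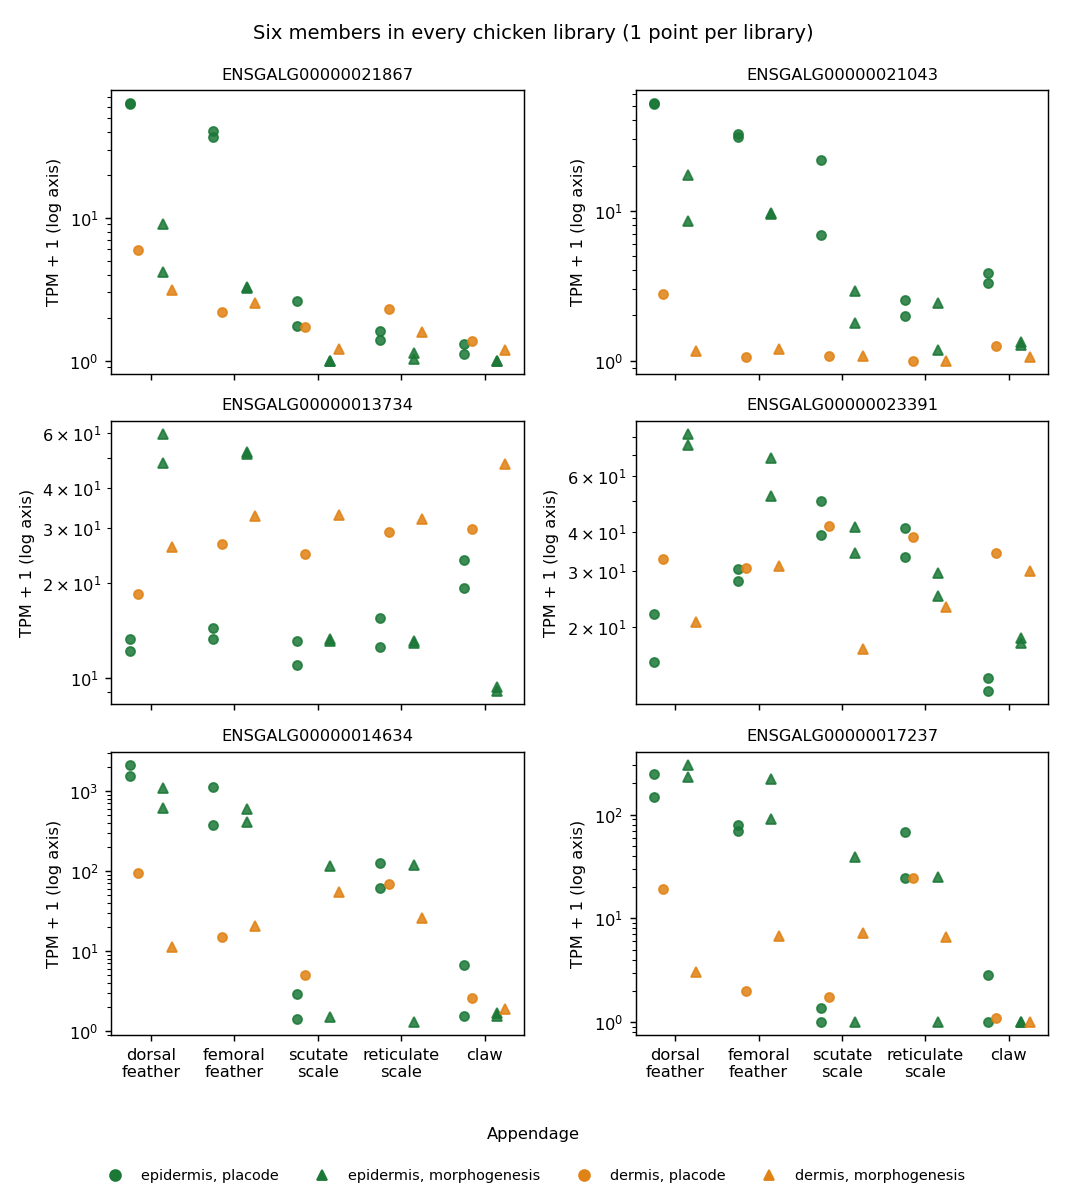
Level of 6 members in every chicken library (TPM + 1, log axis, 1 point per library) by appendage, with colour for layer and shape for stage. The upper 4 genes fell or rose the most between feather stages; the lower 2, ENSGALG00000014634 and ENSGALG00000017237, had replicate libraries of scutate and reticulate morphogenesis far apart.

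The members that fell in feather were mostly lower at morphogenesis in the foot as well. Of the 36, the mean was lower at morphogenesis in scutate scale for 35, in reticulate scale for 35 and in claw for 31, where 59.7%, 62.8% and 63.6% of all genes were lower. Their median changes were -1.20, -0.69 and -0.91, against -0.092, -0.10 and -0.16 over all genes. The 13 members that rose in feather mostly did not have higher means at morphogenesis elsewhere. Their mean was higher in scutate scale for 2, in reticulate scale for 0 and in claw for 2, against 39.8%, 36.8% and 35.9% of all genes. Their median changes there were -0.46, -0.55 and -0.59. These are counts of group means, and the difference in stage change between appendages was not tested. Foot epidermis also took part in choosing the members.

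Feather morphogenesis and claw placode were both sampled at stage 36, which allows a view at equal stage. All 4 feather libraries were above both claw libraries in 55 members, against 49.9% of all genes. The median difference of the members was 1.58 on the log2 scale, and that of all genes was not computed. In 6 members the feather mean was at or below that of the claw. Since the peak in feather was required of every member, this is a description, and replicate 2 of feather morphogenesis and replicate 1 of claw placode carry the same specimen number.

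No tract difference in the members passed the test. The feather libraries compared also chose the members, so the member counts for tract and tract by stage are a description and support nothing. None of the 67 members differed between dorsal and femoral epidermis at an adjusted p under 0.05 by limma, and 5 of 12757 genes did (0.0392%), 0.00784% higher and 0.0314% lower in the dorsal tract. At an unadjusted p under 0.05 there were 2 members, both higher in the dorsal tract, against 3.21% of all genes. Dorsal minus femoral ran from -0.22 to 1.12 over the members and was above 0 in 46 of 67, a share not computed over all genes. Its median was 0.096 on the log2 scale, against 0.0039 over all genes. For ENSGALG00000014634 it was 1.11 (SE 1.37). The fit takes the spread from foot libraries too, and foot replicates of that gene lay far apart, as described below. The smallest adjusted p among members was that of ENSGALG00000021867, at 0.57, for a difference of 0.82 (SE 0.21, limma). Its dorsal placode libraries, given above, were both above its femoral ones. For a difference in stage change between the tracts, limma called 0 of 67 members and 0 of 12757 genes (0%). At an unadjusted p under 0.05 there was 1 member, ENSGALG00000023391, whose rise was larger by 1.05 (SE 0.27) in the dorsal tract, and 1.56% of all genes. With the specimen as a block, since both tracts of a specimen are paired, limma again called 0 members for tract and 0 for tract by stage. That fit called 14 of 12027 genes higher and 19 lower in the dorsal tract, and 0 for tract by stage. At an unadjusted p under 0.05 it gave 15 members for tract, against 9.85% of all genes, and 7 for tract by stage, against 6.22%. Its smallest adjusted p for tract among members was 0.093.

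Dermis libraries took no part in choosing the members, but all except claw placode dermis came from specimens whose epidermis libraries did. The comparison is thus not independent of that choice. It asked whether the members were also higher in feather than in foot dermis. Of the 65 members tested, 7 were higher and 1 was lower in the 4 feather libraries than in the 6 foot libraries, and 57 were not called (limma with appendage and stage as terms, adjusted p under 0.05 over 12860 genes). Over all genes 3.16% were higher and 4.07% lower, 7.23% in all. ENSGALG00000017372 and ENSGALG00000021043 reached 1 TPM in fewer than 2 dermis libraries and were not tested. The median difference of the members was 0.19 against 0.072 over all genes. Of the members, 44 of 65 were above 0, a share not computed over all genes. All feather dermis libraries were above all foot dermis libraries in 4 members, against 4.31% of all genes, and below in 0, against 2.57%. By the same test, of the genes that peak in claw epidermis, 4 were higher and 6 lower of 66 tested, and of those that peak in scale epidermis, 3 and 4 of 47.

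**Figure D4:**
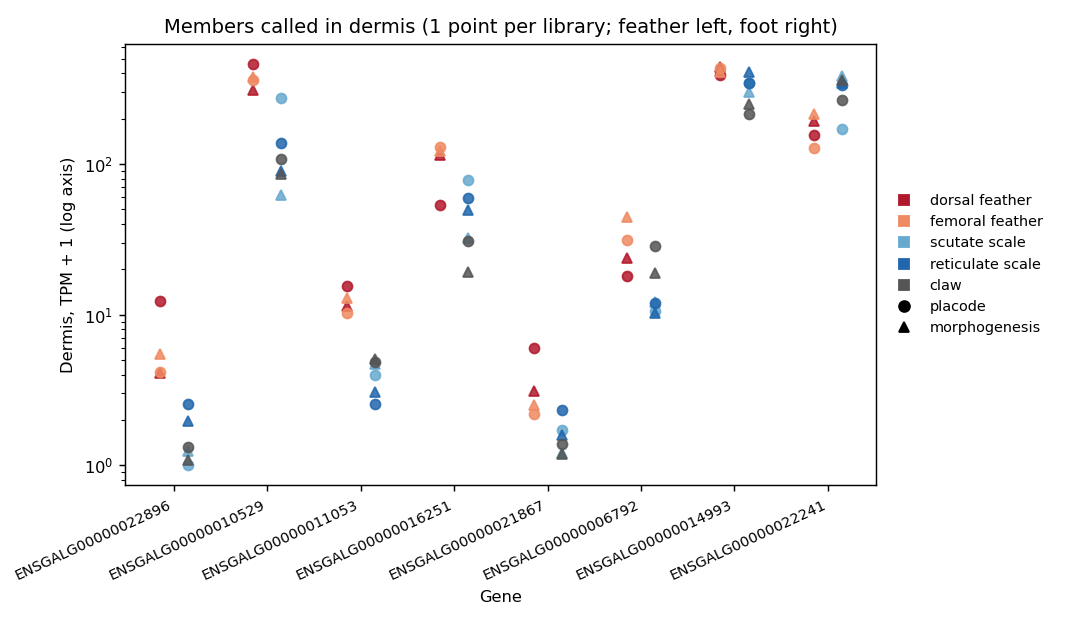
Dermis level (TPM + 1, log axis) of the 8 members called between feather and foot dermis, 1 point per library, feather at the left and foot at the right of each gene. By the fit, feather is higher for 7 genes and lower for ENSGALG00000022241. For the latter, the highest feather library (215 TPM) lies above the lowest foot library (171 TPM). Points also overlap among the 7. The lowest feather and highest foot libraries are 17.2 and 27.7 TPM for ENSGALG00000006792, and 387 and 406 TPM for ENSGALG00000014993.

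On the log2(TPM + 1) scale ENSGALG00000022896 had the largest difference among the members called higher in dermis. Its feather dermis values were 11.4 TPM in dorsal placode, 3.14 TPM in femoral placode, 3.07 TPM in dorsal morphogenesis and 4.46 TPM in femoral morphogenesis, and its foot dermis values ran from 0 to 1.56 TPM with a median of 0.286 TPM. The groups did not overlap, at 5.52 ± 3.98 TPM (SD, n = 4) and 0.529 ± 0.610 TPM (SD, n = 6), and the difference was 2.01 (SE 0.31, limma adjusted p = 0.0128). At such low levels the size depends on the pseudocount, and was 3.56 with 0.1 and 0.87 with 5, where that of ENSGALG00000010529, described next, was 1.75 and 1.70. The gene was at 115 to 305 TPM in feather epidermis, and it had too low a level in dermis to be tested under a filter of 5 TPM. Replicate 1 of feather epidermis, from the same specimens as feather dermis, held 287, 229, 179 and 115 TPM in the same order. The part of epidermis RNA in the dermis values of this gene was not tested. ENSGALG00000010529 was abundant in feather dermis, at 460, 362, 309 and 375 TPM in the same order. Its foot dermis libraries held 61.3 to 272 TPM with a median of 97.99 TPM, so the groups did not overlap, and the difference was 1.74 (SE 0.29, limma adjusted p = 0.0166). The member that was lower, ENSGALG00000022241, had 155, 125.9, 192 and 215 TPM in feather and 171 to 381 TPM in foot dermis, with a median of 341 TPM. Its groups overlapped, and the difference was -0.82 (SE 0.17, limma adjusted p = 0.0295).

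The dermis counts depended on how specimens and single libraries entered. The 4 feather dermis libraries came from 2 specimens, and with the tracts of each averaged, 2 members were higher and 0 lower by limma, against 0.848% and 0.933% of all genes. At an unadjusted p under 0.05 that fit gave 14 members and 14.2% of all genes. ENSGALG00000022896 was still called (adjusted p = 0.0251), whereas ENSGALG00000010529 and ENSGALG00000022241 had adjusted p-values of 0.078 and 0.13 in that limma fit. Without the dorsal placode library 3 members were higher, without the femoral placode 4, without the dorsal morphogenesis 2 and without the femoral morphogenesis library 1. Among foot libraries, leaving out the reticulate placode library gave 2, either scale morphogenesis library 3, and scutate placode 13. The share of all genes called higher moved as well, to between 1.06% and 2.86% without any other library and to 10.7% without scutate placode. The count of lower members was 0 without any of the 4 feather libraries or without the reticulate or claw placode library, and 2 without scutate morphogenesis. Over all genes 1.27% to 3.16% were lower in the former fits and 2.92% in the latter. With any 1 library left out, ENSGALG00000022896 had a difference of 1.61 or more, with an adjusted p of up to 0.058 by limma, ENSGALG00000010529 of 1.45 or more with up to 0.062, and ENSGALG00000022241 stayed between -0.95 and -0.69 with up to 0.12. Feather dermis was also younger than foot dermis of the same stage name, so that appendage and age cannot be told apart in this fit. Libraries of stages 36 and 37 only were also compared. These were the 2 feather morphogenesis libraries, both from 1 specimen, against claw placode and scutate placode, 1 library each, with no reticulate library. In that comparison the 7 higher members all stayed above 0, by 0.64 to 2.04, with ENSGALG00000010529 at 0.99. There ENSGALG00000022241 was at -0.060, and 37 of 65 members were above 0. The same libraries took part in calling the 7, so this is a description. It does not part appendage from age or from morphogenesis against placode. The share of all genes above 0 was not computed.

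Set beside epidermis of the same tracts, the members ranged from nearly absent in dermis to far more abundant there. All 4 feather dermis libraries were below all 8 feather epidermis libraries in 23 members, above in 8, and overlapping in 36, against 18.4% below and 18.6% above over all genes. Dermis minus epidermis had a median of -0.58 and ran from -5.12 to 2.45 on the log2 scale. It was 3 or more lower in 9 members and 1 or more higher in 8. The median and these shares were not computed over all genes. The epidermis values chose the members, so this is a description, and in such bulk samples fewer cells of a type and less RNA per cell cannot be told apart.

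The lowest in dermis by this measure was ENSGALG00000014634, with 10.3 to 93.8 TPM in feather dermis (median 16.7 TPM) against 373 to 2108 TPM in feather epidermis (median 858 TPM). At the other end, ENSGALG00000024383 had 553, 493, 621 and 531 TPM in feather dermis, and 55.9 to 192 TPM in feather epidermis with a median of 106 TPM. Its 6 foot dermis libraries, at 348 to 488 TPM, were all below the lowest feather one. The 9 members lowest in feather dermis were chosen by that level. Their dermis value was a median of 1.496% to 4.448% of the same specimen's epidermis value over the 4 feather libraries. It was highest in the dorsal placode library, which also held the highest dermis values of ENSGALG00000022896 and ENSGALG00000021867. In foot dermis, for those at 5 TPM or more in epidermis, the medians were 1.331% in scutate placode and 37.34% in reticulate placode. They were 22.29% in scutate morphogenesis, 20.74% in reticulate morphogenesis and 55.6% in claw morphogenesis. Claw placode dermis had no epidermis library of its specimen. Each scale median rests on 7 members and the claw median on 4. Single members ran from 0% to 28.85% in scutate placode and 0.1946% to 111.2% in reticulate placode. At morphogenesis they ran from 0% to 70.36% in scutate scale, 0.5728% to 82.75% in reticulate scale and 6.654% to 131% in claw. The part of epidermis RNA in these dermis values was not tested.

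**Figure D5:**
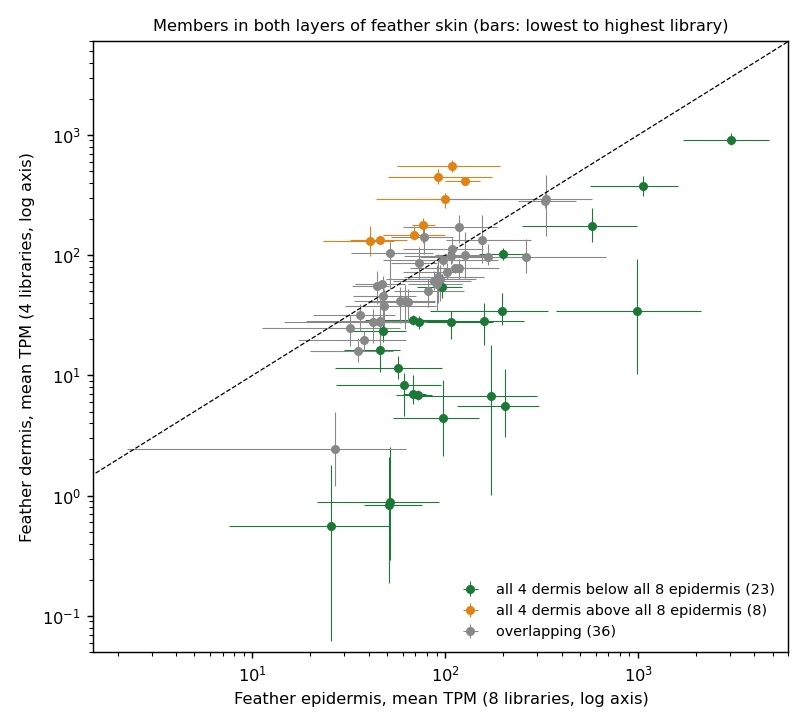
Mean TPM of each member in 8 feather epidermis libraries (horizontal, log axis) against 4 feather dermis libraries (vertical, log axis), with bars from the lowest to the highest library and the diagonal marking equal levels. Of the 67 members, 23 have all dermis libraries below all epidermis libraries, 8 have them above and 36 overlap.

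In feather dermis the members that fell and those that rose in epidermis each went both ways. Of the 34 tested members that fell in epidermis, 8 were lower at morphogenesis in both dermis tracts and 13 were higher in both. Of the 13 that rose, 5 were higher and 7 lower in both tracts. Over all genes 33% were lower and 45.8% higher in both. With 1 dermis library per tract and stage these directions have no test.

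Replicates of feather epidermis lay close together for most members, with a median gap of 0.20 between the libraries of a group on the log2 scale and a largest gap of 1.58, in ENSGALG00000014634. In the foot, 3 members had a gap of 3 or more. ENSGALG00000014634 was at 119 TPM and 0.281 TPM in the replicates of reticulate morphogenesis and at 0.483 TPM and 114.02 TPM in those of scutate morphogenesis. ENSGALG00000017237 was high and low in the same libraries, at 23.9 TPM and 0, and at 0 and 37.7 TPM. The third was ENSGALG00000018387, at 412 TPM and 45.3 TPM in reticulate morphogenesis. These genes were singled out after their values were seen. In foot dermis, with 1 library a group, ENSGALG00000014634 was at 66.8 TPM in reticulate placode, 53.1 TPM in scutate morphogenesis and 24.6 TPM in reticulate morphogenesis, and at 3.98 TPM or less in scutate placode and both claw libraries. The scutate and reticulate morphogenesis dermis libraries came from the same specimens as the high epidermis replicates of those groups. A mean of 2 replicates so far apart does not describe either of them.

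The column totals of the libraries fell in 2 ranges, and in 9 of 10 epidermis groups 1 library came from each. Over these 9 groups 3 members were higher every time in the library of the higher total, as were 2.34% of all genes, and 0 were lower every time, as were 0.329%. The 3 were ENSGALG00000015091, ENSGALG00000015579 and ENSGALG00000017706, with median differences of 0.70, 0.89 and 0.89, and replicates of a group differ by that much for them.

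Some members rose and fell together across all 30 chicken libraries. Of 2211 pairs, 4 had a Pearson correlation of log2(TPM + 1) of 0.98 or more, beside a median of 0.48, given as a description since the libraries share specimens and groups. ENSGALG00000024382 and ENSGALG00000024383 had an r of 0.996, and the ratio of their TPM stayed between 0.717 and 1.06. ENSGALG00000010133 and ENSGALG00000022005 had an r of 0.995 and a ratio of 0.899 to 1.61, and both rose at feather morphogenesis. Whether near-identical copies share reads in such pairs was not tested, so these members are uncertain as separate counts.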

How the data were processed

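Total RNA was made into strand-specific libraries of polyadenylated RNA, per the labels' protocols. CASAVA, TopHat2 (2.0.6) and HTSeq (0.5.3p9) are listed in the submitters' processing notes without saying what each did. No genome build or annotation is stated in the labels. The authors deposited TPM, per the deposited table's own name and its column sums; this unit keeps no depth, so the depth behind each value is unknown and no counting interval is given. Between 10860 and 12158 genes reached 1 TPM in each chicken library, and 0 of 435 pairs of chicken libraries held identical values. Column totals fell in 2 ranges, 994044 to 997588 TPM in 16 libraries and 999829 to 999897 TPM in 14, for a reason not given in the sources used here.

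Members and lists were chosen with earlier results of these data known. Genes at 1 TPM or more in at least 2 libraries were tested with limma 3.58.1 in R 4.3.3 (trended, robust, two-sided) on log2(TPM + 1), with Benjamini-Hochberg adjustment over all genes tested. A pseudocount of 1 understates the change of low genes. Epidermis was fitted as 10 group means over 20 libraries, and dermis with appendage and stage as additive terms over 10. A p-value measures the spread between specimens of a group in epidermis, and departures from that additive model in dermis. Both fits take the tracts of a feather specimen as separate libraries. The alternative that averages them was added after seeing the data. The numbers in the titles pair the tracts by specimen, and deviations of paired libraries from their group means had a correlation of 0.468 at placode and 0.482 at morphogenesis. The text names up to 2 identifiers each way per comparison, by size of change among those called. Others named were chosen after their values were seen. The scripts were tested on simulated data. Of the emu and alligator libraries only the empty cells were used.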

Additional observations from a re-analysis of the deposited data

How the results depend on the processing

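The set held 105 members with a highest group mean of 25 TPM and 35 with 100 TPM. It held 97 with a range of 1.5 and 27 with a range of 3. Leaving out any 1 epidermis library gave 63 to 74. For the feather stages, 13 rose and 36 fell over both tracts. In the dorsal tract alone 20 fell, and in the femoral tract alone 8 rose and 13 fell. Each was a contrast within the same fit of 20 libraries, with fewer feather libraries compared. Without any 1 feather library 11 to 13 rose and 25 to 33 fell, against 11.3% to 15.4% and 9.43% to 11.7% of all genes. The scutate and the reticulate morphogenesis library with the high values named above were also left out, after seeing the data. The set then held 67 genes, 65 of them shared. Of the members described here, 13 rose and 37 fell in that fit, against 16% and 13.9% of all genes. With tracts averaged per specimen, also added after seeing the data, 8 rose and 13 fell by stage, against 5.74% and 4.8% of all genes. In dermis 2 were higher and 0 lower, against 0.848% and 0.933%, with fewer samples in both fits. Tract and tract by stage called 0 members under every alternative run, the replicate block by paired specimens (0 and 0) included. In dermis, the count of lower members, 1, was 0 with no filter, 2 with median-of-ratios rescaling and 2 with quantile normalization. Over all genes 2.44%, 5.05% and 4.49% were lower in these fits, against 4.07% in the main fit. Leaving out any 1 dermis library gave 1 to 13 higher and 0 to 2 lower members, and the cause was not tested. The shares of all genes were 1.06% to 10.7% higher and 1.27% to 5.38% lower. A term for the range of the column total was added after seeing the data. With it 15 rose and 36 fell by stage, against 16.5% and 14.1% of all genes. For dermis 6 were higher and 1 lower, against 3.09% and 3.88%. By stage and in dermis, the differences followed were those of up to 2 genes each way with the largest change among those called. These differences, and the median dermis difference, did not change sign in the alternatives run. Other named genes were not followed there. Directions of the tract differences were not followed there. With 1 dermis library per appendage and stage, and no depth in TPM, small differences in dermis may go undetected.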
